A study of Dichotomyctere nigroviridis with 22 samples.

Results

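The green-spotted puffer carries a gene named safb on chromosome 1 (ENSTNIG00000015470) and a short gene model on unplaced sequence (ENSTNIG00000003883) that the study annotated by hand as safb. These 2 genes, of 20108 listed in the deposited tables, are described here by their levels in each fish and organ. The short copy was selected on its difference between PNX-14 treated and control fish in these same libraries, so that difference is given as a description, with no test. The chromosome 1 copy was taken for its name.

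Libraries came from vitellogenic female puffers 24 h after 1 intramuscular injection. The 4 groups were ovaries of fish given PNX-14 at 100 ng/g body weight (OT, n = 5), ovaries of control fish (OC, n = 5), hypothalami of PNX-14 treated fish (HT, n = 6) and hypothalami of control fish (HC, n = 6). The sources differ on the control injection (saline or sterile water), on body weight and on whether ovaries were whole or biopsied. The fish were of wild origin and each was held in its own container, and no ovary numbered OT1 or OC4 was among the libraries. Phoenixin-14 (PNX-14) is a peptide cut from a small membrane protein and is known in mammals and fishes as a stimulator of the hypothalamic and pituitary side of reproduction. Poly(A) RNA was sequenced and reads were counted per gene, with 11756975 to 15735216 counted reads per ovary library and 9140910 to 12729314 per hypothalamus library. The egg coat gene zpax1 marked the ovaries, at 9110 to 10381 CPM in OT and 6582 to 15756 CPM in OC, and the synaptic gene snap25a marked the hypothalami, with a median of 1708 CPM in HT and 1620 CPM in HC against 0 CPM in OT and 0.279 CPM in OC. In 5 hypothalami (HT3, HT4, HC1, HC2 and HC5) zpax1 exceeded 500 CPM and a sum of 7 oocyte genes stood at 1819 to 3670 CPM, and these libraries are called those that held egg RNA. Levels are given in CPM, the count scaled to library size with edgeR's TMM normalization over all 22 libraries, or in the deposited FPKM, which is also divided by gene length.

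Scaffold attachment factor B, the product of safb, is a nuclear protein that in mammals binds AT-rich DNA at the base of chromatin loops through a SAP domain and RNA through an RNA recognition motif. It acts in transcription and splicing, is known in human cells as a corepressor of estrogen receptor alpha, and was also described as a factor on a heat shock gene promoter. A related gene, sltm, encodes a SAFB-like modulator of transcription.

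The copies differed in their annotation. The chromosome 1 copy spans 15204523 to 15210202 on the plus strand of chromosome 1 in the Ensembl assembly TETRAODON 8.0, a span of 5680 bases with a gene length of 2340 bases used for FPKM, and its description in the files names both a SAP domain and an RNA recognition motif. The short copy lies on the unplaced sequence Un_random from 64311909 to 64313244 on the minus strand, a span of 1336 bases with a gene length of 714 bases. The files give it no symbol and no description, and its name rests on the study's own database search. No annotated gene overlaps either copy. How alike the copies are in sequence was not analysed here, and the sources used here do not say how reads that fit several places were counted, so reads could have been shared between the copies or with other genes.

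The short copy was nearly absent from control ovaries and present in every ovary of PNX-14 treated fish. Its counts were 43, 39, 37, 115 and 94 in OT2, OT3, OT4, OT5 and OT6, against 1, 1, 0, 1 and 0 in OC1, OC2, OC3, OC5 and OC6. The groups did not overlap, and the lowest treated ovary held 37 counts where the highest control ovary held 1. How many of all genes lack overlap in ovary was not counted, and the short copy was selected on this contrast. In CPM the short copy stood at 5.70 ± 2.57 in OT and 0.0566 ± 0.0518 in OC (SD, n = 5 each). The 0 counts in OC3 and OC6 allow levels of up to 0.285 CPM and 0.208 CPM, the value of 3 counts in those libraries, so absence from control ovaries could not be told apart from a level below these limits. Summed over libraries there were 328 counts in OT and 3 in OC, a ratio per effective depth of 111. The exact 95% interval of 37.6 to 541 shows only how loosely 3 counts fix that ratio in these libraries, and it takes in neither the spread between fish nor the selection of the gene. Across the ovary 2 of 14777 genes tested (0.0135%) passed an adjusted p of 0.05 (edgeR's quasi-likelihood test), and nothing is read from the place of the short copy among them, since it was selected on this contrast. DESeq2 and limma-voom called 29 and 2 genes in ovary. The short copy passed the filter on low counts in ovary through OT alone. The paper assayed a gene it names safb in ovary by quantitative PCR, in fewer ovaries of each group than were sequenced. For safb it reports no positive correlation between the PCR values and the normalized sequencing counts. It lists safb among ovary genes whose sequencing difference the PCR did not bear out. The paper holds low sample sizes and small fold changes of most genes as the likely reason. It gives no separate reason for safb, and the ratio of 111 for the short copy is not small. Which copy the primers amplify was not tested here.

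In the hypothalamus the short copy was present in every treated fish and, among controls, above 5 counts in HC4 only. Counts were 81, 122, 86, 66, 228 and 145 in HT1 to HT6, against 4, 0, 5, 70, 2 and 5 in HC1 to HC6. The control library HC4, at 70 counts, lay above the lowest treated library, HT4 at 66, and the other 5 controls lay below all 6 treated libraries. The level was 10.7 ± 5.78 CPM in HT and 1.18 ± 2.26 CPM in HC (SD, n = 6 each), and 0.258 ± 0.181 CPM over the 5 HC without HC4. In the library with 0 counts, HC2, 3 counts would correspond to 0.274 CPM. The summed counts were 728 in HT and 86 in HC, a ratio per effective depth of 9.06, and without HC4 the ratio was 40.7. Across the hypothalamus 0 of 17126 genes (0%) passed an adjusted p of 0.05 with edgeR, where 668 had an unadjusted p under 0.05, and DESeq2 and limma-voom called 4 and 0 genes.

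**Figure D1:**
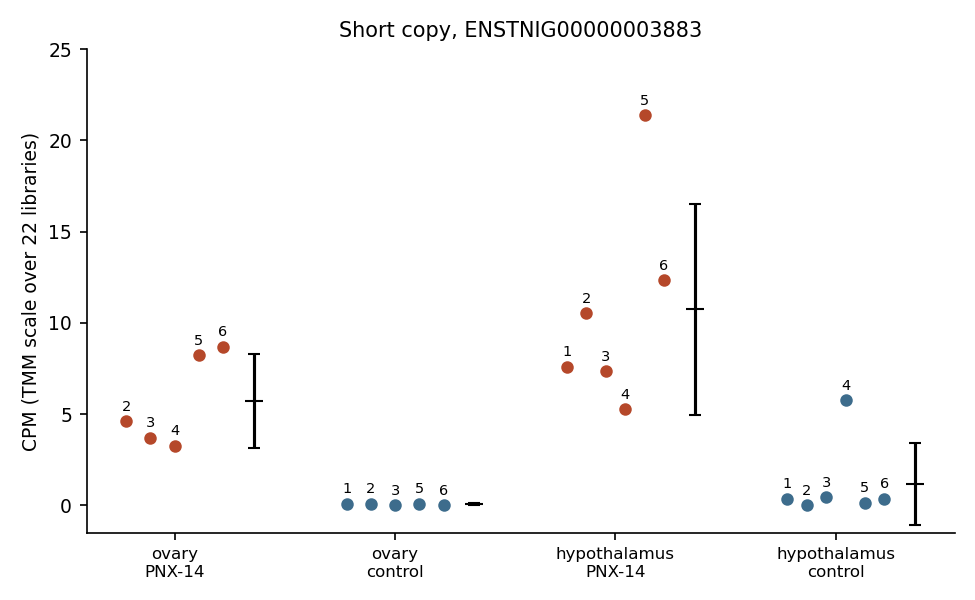
CPM of the short copy in each of the 22 libraries, by group, with the replicate number above each point and the group mean ± SD beside the points. The 5 OC points lie at 0 to 0.0994 CPM below all 5 OT points, and HC4 at 5.78 CPM is the only control library inside the range of PNX-14 treated libraries.

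Among treated fish the libraries numbered 5 and 6 held the most of the short copy in both organs. OT5 and OT6, at 8.24 and 8.69 CPM, held more short copy RNA than OT2, OT3 and OT4, at 4.60, 3.71 and 3.27 CPM. HT5 and HT6, at 21.4 and 12.4 CPM, likewise exceeded HT1 to HT4, at 7.59, 10.5, 7.34 and 5.26 CPM. The libraries numbered 4 were the lowest of their group in both organs, followed by those numbered 3. Both organs were sampled from the same fish, but the sources do not say outright that the library numbers are fish numbers, and the 5 numbers shared by OT and HT are too few for a correlation. The control hypothalamus HC4 had no ovary partner.

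No other gene of the tables met limits that describe the pattern of the short copy. Of 20108 genes, 1 had at most 1 count in every OC and at least 30 in every OT, and it was the short copy, while 0 genes had the reverse. In the hypothalamus 1 gene, again the short copy, had at most 5 counts in at least 5 HC and at least 30 in every HT, and 0 genes had the reverse. These limits were set with the counts of the short copy in view and are a description of its pattern.

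The control library that stood apart, HC4, also had the highest red blood cell and macrophage sums of the control hypothalami. In HC4 the summed CPM of 4 red blood cell genes was 2255, against 377 to 961 in the other HC and 364 to 1688 in HT, and that of 8 macrophage and microglia genes was 392, against 180 to 336 in the other HC and 154 to 704 in HT. The egg RNA of HC4 was not high, with zpax1 at 217 CPM. Its sums of neuron genes (2796 CPM), oocyte genes (540 CPM) and genes of the skeletal muscle list (62.0 CPM) lay within those of the other HC. Of the macrophage list 7 of 8 members had a positive log2 difference between HT and HC (median 0.49 against 0.01 over all genes) and 6 of 6 tested had a negative one between OT and OC (median -1.02 against -0.02), and of the red blood cell list 3 of 4 were positive between HT and HC. None of these members passed, where 0% of all genes passed in hypothalamus and 0.0135% in ovary. Among red blood cell genes the globin gene hbae5 had a median of 499 CPM in HT and 364 CPM in HC. Its means lay closer, at 804 ± 605 CPM in HT and 747 ± 719 CPM in HC. Most of the red blood cell sum was hbae5, since in HC alas2 averaged 41.5 CPM and the slc4a1a genes 6.23 and 2.11 CPM. The sum in HC4 therefore does not show that the 4 genes rose together. The negative member was slc4a1a (ENSTNIG00000004222, log2 difference -0.43, SE 0.71). In HT the red blood cell sum was highest in HT5 (1688 CPM) and HT4 (1624 CPM), the libraries with the most and the least of the short copy. The part of these cells in the level of the short copy was not tested. Without the 5 hypothalami that held egg RNA, the counts were 81, 122, 228 and 145 in HT1, HT2, HT5 and HT6, against 5, 70 and 5 in HC3, HC4 and HC6.

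The chromosome 1 copy did not pass the test in either organ after PNX-14. Its counts in ovary were 578, 632, 566, 883 and 568 in OT2 to OT6, against 608, 448, 608, 547 and 1150 in OC1, OC2, OC3, OC5 and OC6. The groups overlapped, with the highest level in a control, OC6. Levels averaged 57.5 ± 5.91 CPM in OT and 57.6 ± 13.3 CPM in OC (SD, n = 5 each). On the log2 scale the difference was -0.04 (SE 0.16, 95% interval -0.38 to 0.31, adjusted p = 0.977, edgeR), and without OC6 it was 0.12 (adjusted p = 0.866). In hypothalamus the counts were 1804, 1854, 1948, 1612, 1895 and 1934 in HT1 to HT6, against 1609, 1729, 2101, 2110, 1669 and 2525 in HC1 to HC6. Levels averaged 161 ± 17.0 CPM in HT and 160 ± 24.7 CPM in HC (SD, n = 6 each). On the log2 scale the difference was 0.04 (SE 0.12, 95% interval -0.21 to 0.29, adjusted p = 0.983, edgeR). The intervals leave room for changes of up to these sizes in either direction. The lowest hypothalami, HT4 (128 CPM) and HC5 (119 CPM), were the only 2 with a high sum over 13 genes of the skeletal muscle list. That sum was 1599 CPM in HT4 and 49.3 to 176 CPM in the other HT, and 2702 CPM in HC5 and 30.1 to 235 CPM in the other HC. It was also high in ovaries, at 952 to 1911 CPM in OT and 1239 to 2387 CPM in OC, so it does not mark skeletal muscle alone. Its largest member by median was desmb, at 851 CPM in OT, 1130 CPM in OC, 63.3 CPM in HT and 38.7 CPM in HC. The members differed in spread, with ACTA1 (ENSTNIG00000012219) at 39.8 ± 79.1 CPM and TNNT3 (ENSTNIG00000018792) at 2.80 ± 0.598 CPM in HC. HT4 and HC5 also held egg RNA, as did HT3, HC1 and HC2, where the chromosome 1 copy stood at 166, 144 and 158 CPM. The part of the tissue behind this sum, or of egg RNA, in these levels was not tested. The log2 difference was 0.10 without HT4, -0.037 without HC5 and -0.080 without the 5 libraries that held egg RNA (adjusted p = 0.836). The PNX-14 difference of this copy in ovary minus that in hypothalamus was -0.02 on the log2 scale (SE 0.20, adjusted p = 1.00, edgeR).

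**Figure D2:**
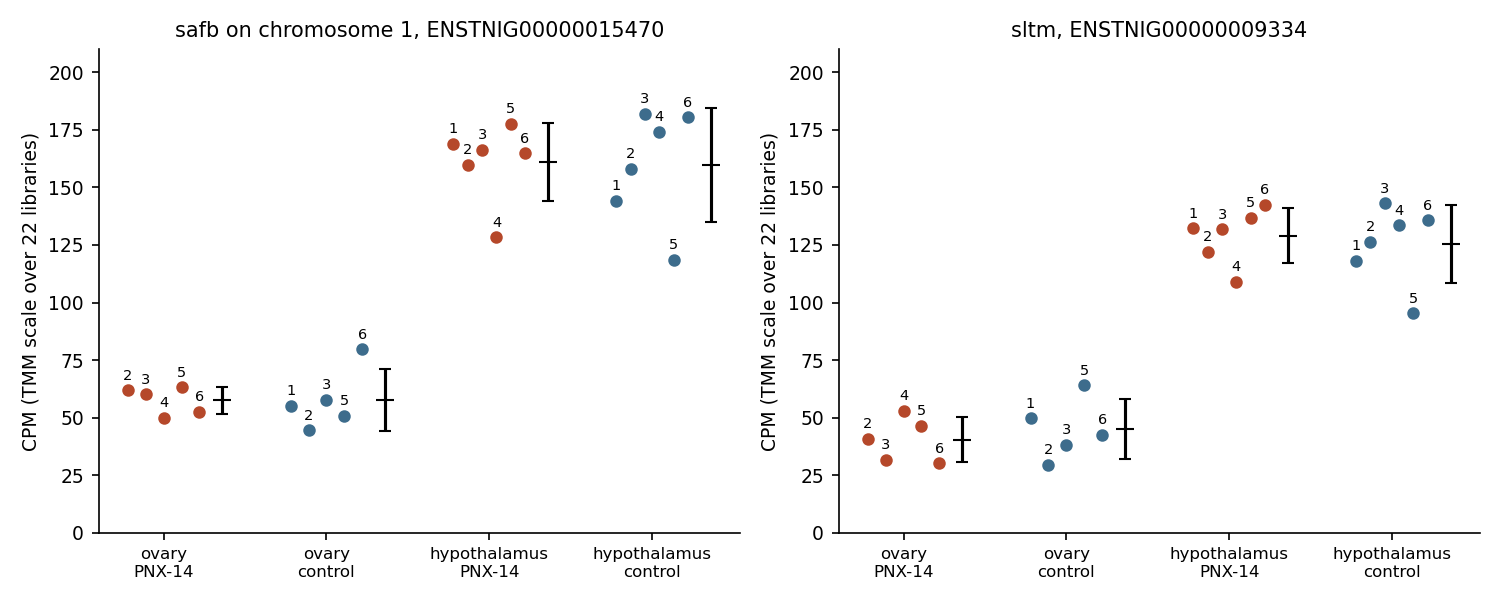
CPM of the chromosome 1 copy of safb (left) and of sltm (right) in each library by group, with replicate numbers, mean ± SD. Both genes sit lower in all 10 ovaries than in any hypothalamus, and PNX-14 and control libraries overlap in each organ. The share of all genes that separate between the organs in this way was not counted.

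Both annotated SAFB family genes were lower in ovary than in hypothalamus. The chromosome 1 copy was at 57.6 ± 13.3 CPM in OC (n = 5) and 160 ± 24.7 CPM in HC (n = 6), a log2 difference of -1.47 (SE 0.14, adjusted p = 2.38e-09, edgeR over all 22 libraries), so that the hypothalamus held 2.77-fold more. In PNX-14 treated fish the log2 difference between OT and HT was -1.48 (SE 0.14, adjusted p = 1.85e-09). Every ovary lay below every hypothalamus, and the share of all genes that separate in this way was not counted. Over all genes the median absolute log2 difference was 1.63 in the control contrast and 1.75 in the treated one, larger than for this copy. The organs differ in most genes: 39.2% of 17840 genes tested were higher and 44.3% lower in OC than in HC, and 39.4% were higher and 45.2% lower in OT than in HT, so a call here is near the background. The size is better read against the median gene, which stood at -0.18 in the control contrast and -0.20 in the treated one and moved to -0.54 and -0.60 with library totals alone. Relative to that median the chromosome 1 copy stood at -1.28 in the control contrast and -1.29 in the treated contrast, within 0.01 of these under the other scalings. For sltm (ENSTNIG00000009334, chromosome 5 from 5551494 to 5559162, minus strand) the log2 difference was -1.48 (SE 0.18) between OC and HC and -1.67 (SE 0.18) between OT and HT, each past the threshold. After PNX-14 sltm stood at -0.18 (SE 0.22) in ovary and 0.07 (SE 0.11) in hypothalamus, neither past it. No gene with the symbol safb2 was found in the tables. Fewer cells of a type and less RNA per cell cannot be told apart in these bulk samples.

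Between the organs the levels of the short copy overlapped in both treated and control fish. In treated fish it was at 5.70 ± 2.57 CPM in OT (n = 5) and 10.7 ± 5.78 CPM in HT (n = 6), a log2 difference of -0.91 (SE 0.69, 95% interval -2.33 to 0.51, edgeR). The short copy was selected on its high values in these treated libraries, so no call is made between the treated organs. The groups overlapped, with 3 of the 5 OT below all 6 HT. Without HC4, which enters this fit only through the shared spread, the difference was -0.89 (SE 0.40). Both organs were taken from the same 12 fish, and with same-numbered libraries treated as 1 fish (a replicate block) the difference was -0.95 (SE 0.38). In control fish the counts were 0 to 1 in OC and 0 to 5 in HC other than HC4, and the groups overlapped at 0 counts. The short copy entered the fit of all 22 libraries through the treated groups, and the filter removed it where OC and HC were fitted alone. No call is made between the control organs either. The fitted log2 difference there was -4.21, and -2.07 without HC4.

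Per length, the short copy was the minor of the pair in all 22 libraries. In FPKM it averaged 6.90 ± 3.26 in OT and 0.0690 ± 0.0631 in OC, and 17.0 ± 8.93 in HT and 1.86 ± 3.57 in HC. Its counterpart on chromosome 1 averaged 21.1 ± 2.42 FPKM in OT and 21.6 ± 5.79 in OC, and 78.3 ± 8.13 in HT and 76.2 ± 11.4 in HC. The FPKM of the short copy was 20.2% to 54.2% of that of the chromosome 1 copy in OT and 0% to 0.732% in OC. In the hypothalamus it was 13.4% to 39.4% in HT, and 10.9% in HC4 against 0% to 0.815% in the other HC. Among all genes detected in a group, the short copy exceeded 47% of genes in OT and 4.48% in OC, and 52% in HT and 16.5% in HC by mean FPKM. By the same measure the chromosome 1 copy exceeded 65.1% of genes in OT and 65.3% in OC, and 91.4% in HT and 91.2% in HC. Summed over both copies the level was 63.2 ± 6.74 CPM in OT and 57.7 ± 13.3 CPM in OC, and 172 ± 21.2 CPM in HT and 161 ± 25.6 CPM in HC, and these ranges overlapped in each organ.

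The genes annotated next to each copy did not share the pattern of the short copy. Within 50 kb of it lie ENSTNIG00000003884, described as a tyrosine phosphatase like PTPN18, 36939 bases away, and gripap1, a gene of endosome traffic in neurons, 44317 bases away. The phosphatase-like gene was at 2.91 ± 1.38 CPM in OT and 3.66 ± 2.98 CPM in OC, and at 39.5 ± 15.8 CPM in HT and 30.9 ± 9.14 CPM in HC. For gripap1 the levels were 46.3 ± 7.82 CPM in OT and 41.3 ± 6.52 CPM in OC, and 66.5 ± 6.66 CPM in HT and 59.4 ± 10.2 CPM in HC. Neither passed in either organ, with log2 fold changes of -0.40 and 0.13 in ovary and 0.38 and 0.19 in hypothalamus.

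Around the chromosome 1 copy lie malt2, described as a MALT1-like protease of immune signaling, mrpl54, a mitochondrial ribosomal protein, and fam32a on one side, and lpl, lipoprotein lipase, a second gene described as lipoprotein lipase (ENSTNIG00000015472) and an ADAM10-like metalloprotease (ENSTNIG00000015473) on the other. The nearest, malt2, ends 946 bases before safb starts. None of the 6 passed after PNX-14, and malt2 was too low to test in ovary. The largest ovary difference was that of fam32a, at 168 ± 65.6 CPM in OT and 104 ± 28.6 CPM in OC (log2 fold change 0.66, SE 0.23, adjusted p = 0.564, edgeR). Between the organs the block did not move as one. Like safb, malt2 was lower in ovary, by a log2 difference of -2.81 between OC and HC. In contrast mrpl54 (1.54), fam32a (0.67), lpl (3.38), ENSTNIG00000015472 (4.46) and ENSTNIG00000015473 (3.55) were higher in ovary, all past the threshold.

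**Figure D3:**
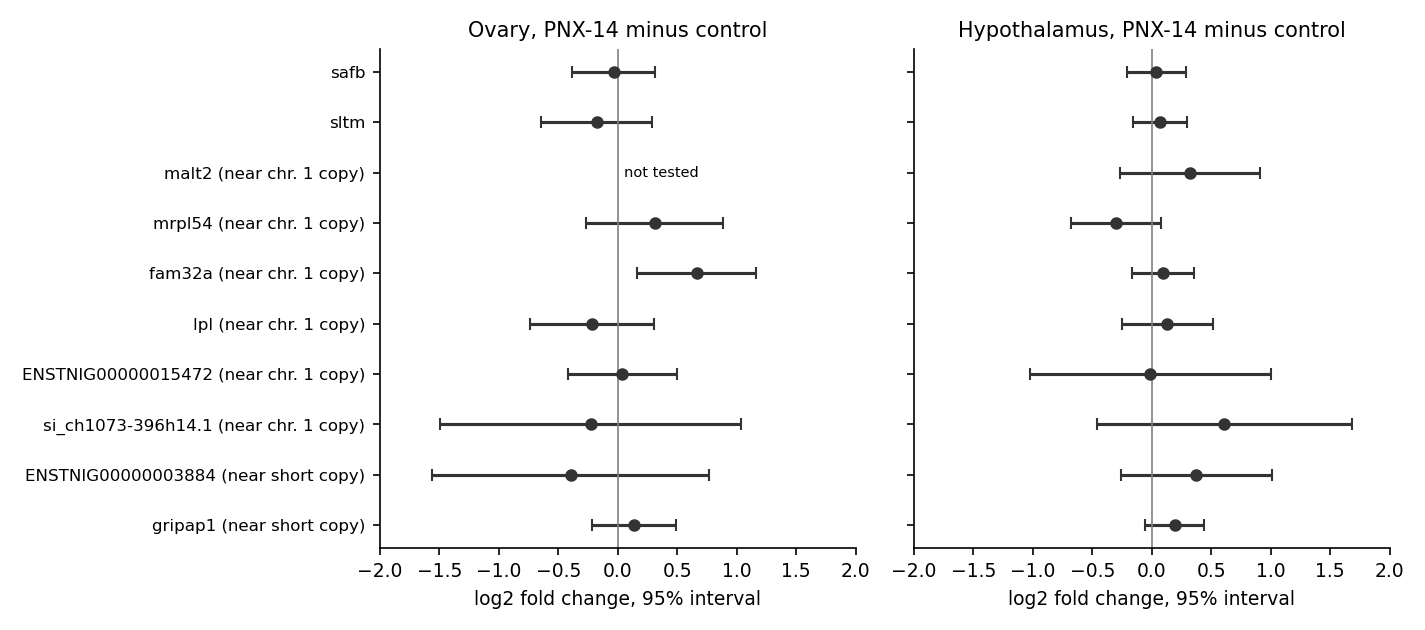
Log2 fold changes after PNX-14 with 95% intervals from edgeR in ovary (left) and hypothalamus (right) for the chromosome 1 copy of safb, sltm and the annotated genes within 50 kb of either copy, and malt2 was not tested in ovary. None passed the adjusted threshold, and the intervals of fam32a in ovary alone leave out 0.

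The genes most like the short copy across libraries lay mostly on unplaced sequence as well. Likeness was the mean of the Pearson correlation of log2 CPM over the 10 ovaries and that over the 12 hypothalami, among 14364 other genes, and since it draws on the contrast that selected the short copy, these genes are described only. They were ENSTNIG00000002294, described as Talin-1, which links integrins to actin (mean correlation 0.82), arid4a, a chromatin protein that binds the retinoblastoma protein in mammals (0.80), the zinc finger transcription factor gene zbtb7b (0.77), ENSTNIG00000002729, described as aftiphilin, a protein of clathrin traffic (0.76), and wdr3, a factor of small ribosomal subunit assembly (0.75). On Un_random lay 4 of these 5, where 28.2% of all genes lie. The talin-like gene shared the high value in HC4, at 35.7 CPM against 9.86 to 20.8 CPM in the other HC, with 18.7 to 48.4 CPM in HT. For wdr3 the ovary ranges were 107 to 120 CPM in OT and 85.8 to 91.0 CPM in OC, and for zbtb7b 45.1 to 60.6 CPM in OT and 26.6 to 37.3 CPM in OC, while in hypothalamus both overlapped. In ovary the ranges of arid4a (194 to 246 CPM in OT, 145 to 216 CPM in OC), the talin-like gene and ENSTNIG00000002729 overlapped. The share of all genes without overlap in ovary was not counted, and the ranking by likeness itself favored genes that separate there. None of the 5 passed in ovary (adjusted p = 0.562 to 0.588, edgeR). These differences were far smaller than that of the short copy. Without the short copy, the median log2 fold change in ovary was 0.01 over 4259 genes on unplaced sequence and -0.03 over 10517 on placed sequence.

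**Figure D4:**
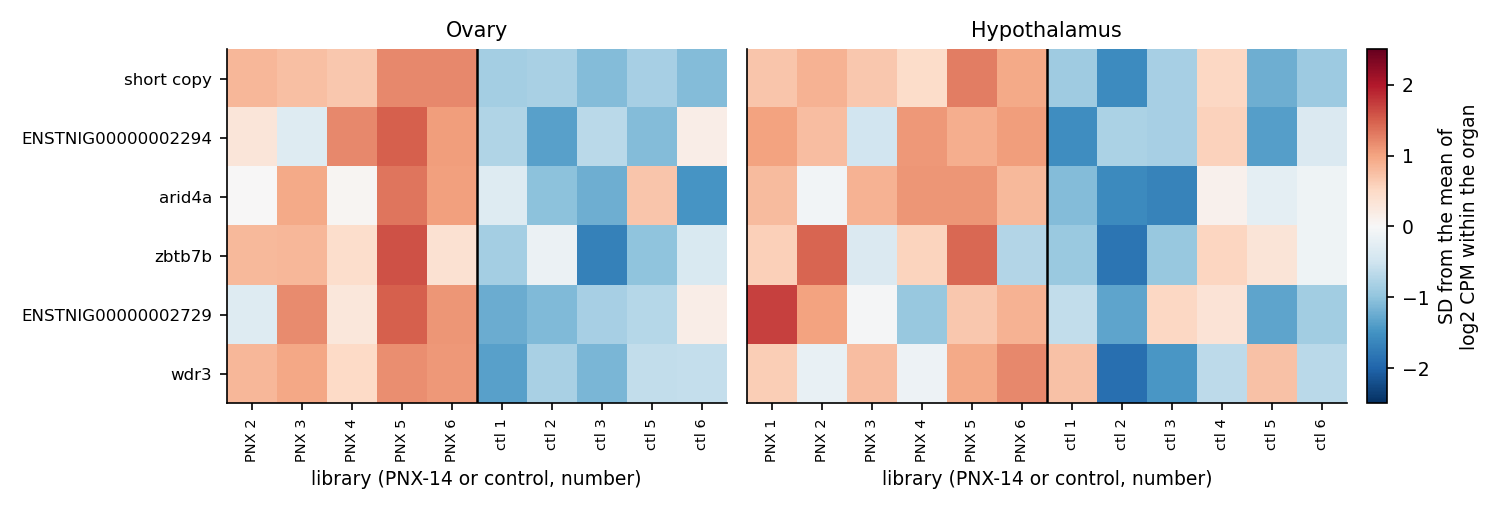
Log2 CPM of the short copy and of the 5 genes most like it, as SD from each gene's mean within ovary (left, n = 10) and hypothalamus (right, n = 12), with PNX-14 libraries left of the line and control libraries right of it. Libraries numbered 5 among PNX-14 treated fish are red in every row. Control hypothalamus 4 lies above the mean in every row but wdr3, and only slightly for arid4a.

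Other genes were most like the chromosome 1 copy. They were hspg2, the basement membrane proteoglycan perlecan (mean correlation 0.86), hnrnpa3, an RNA-binding protein of the nucleus (0.85), ENSTNIG00000010021, described as the microtubule protein MAP7D2 (0.85), the ubiquitin ligase gene trim3b (0.84) and vps13c, a lipid transfer protein (0.83), 0 of 5 of them on Un_random. In ovary the library OC6 was the highest for the chromosome 1 copy (79.7 CPM against 44.5 to 57.8 CPM in the other OC) and was also the highest for hspg2 (168 CPM), hnrnpa3 (54.0 CPM) and vps13c (60.3 CPM). The macrophage list was highest in OC6 too, at 293 CPM against 68.4 to 134 CPM in the other OC, and its part in these levels was not tested. The correlation of the chromosome 1 copy with sltm was 0.96 over the 12 hypothalami and 0.07 over the 10 ovaries, which placed sltm at rank 749 of 14364. HC5 and HT4 were the lowest hypothalami for the chromosome 1 copy (119 and 128 CPM) and for sltm (95.4 and 109 CPM). They were also lowest for ENSTNIG00000010021, trim3b and vps13c, but for hspg2 and hnrnpa3 only HC5 was. Both were high in the skeletal muscle list and in egg RNA. The correlation without them was not computed.

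For genes that act in the same processes as SAFB, the PNX-14 differences are given as values, since 0.0135% of all genes passed in ovary and 0% in hypothalamus and a count of 0 is what most lists would give. Of 24 tested nuclear scaffold genes, 0 passed in ovary (median log2 fold change -0.00 against -0.02 over all genes) and 0 of 24 in hypothalamus (0.07 against 0.01). Of SR proteins and hnRNPs, RNA-binding proteins of splicing, 0 of 33 passed in ovary and 0 of 36 in hypothalamus, with medians of -0.01 and 0.05. The splicing factor gene SRSF3 led the list in ovary, at 234 ± 72.0 CPM in OT and 148 ± 46.7 CPM in OC (log2 fold change 0.63, SE 0.24, adjusted p = 0.573, edgeR), and HNRNPH1 led it in hypothalamus, at 38.3 ± 3.71 CPM in HT and 30.6 ± 5.12 CPM in HC (0.35, SE 0.12, adjusted p = 0.979). Of estrogen receptors and corepressors 0 of 24 passed in each organ, with phb, a prohibitin that represses estrogen receptor activity in mammals, at 193 ± 40.6 CPM in OT and 139 ± 14.9 CPM in OC (0.44, SE 0.14, adjusted p = 0.562). Of heat shock genes 0 of 17 passed in each organ, and the small heat shock genes hspb8 (-0.92, SE 0.28) and hspb1 (-0.81, SE 0.28) had the smallest p in ovary, both with an adjusted p of 0.562.

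Between the organs, the counts of each list can be set beside the 39.2% of all genes higher and 44.3% lower in OC than in HC, and the 39.4% higher and 45.2% lower in OT than in HT. Differences between lists were not tested. In OC against HC, 8 of 36 SR proteins and hnRNPs were higher and 20 lower, with a median of -0.50 against -0.18 over all genes, and in OT against HT 8 were higher and 21 lower. The splicing factor gene srsf5b was lower in ovary, at 24.0 ± 3.32 CPM in OC and 127 ± 18.8 CPM in HC, as was hnrnpr, at 10.7 ± 3.19 CPM in OC and 94.2 ± 11.6 CPM in HC. Nuclear scaffold genes were split, 10 of 25 higher and 11 lower in OC than in HC, with the topoisomerase gene top2b lower by a log2 difference of -3.42 and tmpoa, for a nuclear envelope protein, higher by 2.65. Of estrogen receptors and corepressors 12 of 24 were higher and 6 lower in OC than in HC, among them mta3 (1.27), a subunit of a chromatin remodelling complex. Heat shock genes were mostly higher in ovary, 12 of 17 against 2 lower in both contrasts, with a median of 1.56 in OC against HC, and HSF1, the heat shock transcription factor, stood at 139 ± 13.6 CPM in OC and 47.2 ± 3.53 CPM in HC. Against the 83.5% of all genes called in OC against HC in either direction, the called share of these lists was 75% to 84%, near that background.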

How the data were processed

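Poly(A) RNA libraries that keep the strand were made and sequenced in pairs by the study. The authors trimmed reads with fastp, aligned them to the Ensembl puffer genome TETRAODON 8.0 with HISAT2 and counted them per gene with featureCounts. For versions, the strand setting and multiply mapped reads, the sources used here give nothing. The deposited counts are whole reads per gene, not normalized. The deposited FPKM values are counts scaled by gene length and library size, as the authors computed them, and for both members they equalled that quotient to within 0.000339%. The authors' 22 columns of counts divided by size factors, a signal, were not used, nor were the deposited log2 fold changes and p-values of their DESeq2 comparisons.

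Names, groups and numbers came from the labels. Depth was 9140910 to 15735216 counted reads per library. Where a gene was missing from one organ's table, its counts there were taken as 0. Counts were analysed with edgeR 4.0.16 in R 4.3.3 (filterByExpr, TMM, robust quasi-likelihood, Benjamini-Hochberg at 0.05 over all genes tested), treatments within each organ (14777 and 17126 genes) and organs in one fit of all 22 libraries (17840 genes). SE was taken from the F statistic. The ratio of summed counts in ovary has an exact conditional 95% interval, which, like the floor of 3 counts, covers counting error only. Alternatives were DESeq2 1.42.0, limma-voom (limma 3.58.1), other scalings and filters, other samples in the fit, a replicate block, and leaving out each library. One more, without the 5 hypothalami with zpax1 above 500 CPM, was chosen after seeing the data. The gene tests and the likeness ranking were tested on simulated data.

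The members and gene lists were chosen with earlier results of these data known. Named were both copies, genes called safb, safb2 or sltm, the 5 genes most like each copy, up to 3 annotated genes on each side within 50 kb, and up to 3 members of a list with the smallest p in a contrast. Genes named outside this rule (snap25a, hbae5, zpax1, desmb) are cell type markers, and the values of OC6 and HC4 in other genes were picked after they were seen. Samples of a group are separate fish.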

Additional observations from a re-analysis of the deposited data

Results flagged for a closer look

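In control hypothalami the short copy ENSTNIG00000003883 stood at 5.78 CPM in HC4, where the next highest control was at 0.433 CPM. In treated hypothalami the chromosome 1 copy ENSTNIG00000015470 stood at 128 CPM in HT4, where the next lowest was at 160 CPM. HT4 also stood apart in the sum over 13 genes of the skeletal muscle list (1599 CPM against 49.3 to 176 CPM in the other HT), which was also high in ovaries. It was high in zpax1 (1421 CPM) and in the sum of 4 red blood cell genes (1624 CPM). The part of these in its level was not tested. The levels in HC4 and HT4 were singled out because the gap to the nearest library took up most of the range of the group. If levels were normally spread, about 1 in 20 groups would show such a gap by chance, and 8 groups were looked at. Whether levels were so spread was not tested.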

How the results depend on the processing

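The organ difference of the chromosome 1 copy kept its direction and passed the threshold under all 31 alternatives in control fish (log2 -1.82 to -1.36) and all 31 in treated fish (-1.89 to -1.44). With FPKM in place of CPM its mean in OT was 0.270 of that in HT, against 0.357. The PNX-14 difference of this copy passed under none of 18 alternatives in ovary and none of 21 in hypothalamus, and its sign was not stable. Leaving out single libraries gave -0.11 to 0.12 in ovary and -0.037 to 0.10 in hypothalamus, positive in ovary without OT4, OT6 or OC6, and negative in hypothalamus without HC5. Without the hypothalami that held egg RNA, an alternative chosen after seeing the data, it was -0.080. For the short copy, where no call is made between the organs, the difference in treated fish was -0.89 with only the 2 groups compared. Leaving out single libraries gave -1.12 to -0.58. In control fish limma-voom gave -2.19 and leaving out single libraries gave -4.45 to -2.07, the last without HC4. It could not be fitted with at least 10 counts in every library, nor in control fish with the 2 groups alone, where the filter removed it.

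With the library number as a block within each organ, the PNX-14 difference of the chromosome 1 copy was 0.011 in ovary and 0.05 in hypothalamus. That block joins a treated and a control fish, which are different fish, so it has no basis in the design. With the fish as the block, the organ difference of the short copy was -0.95 in treated fish and -2.02 in control fish. That of the chromosome 1 copy was -1.45 in control fish (adjusted p = 5.11e-07, edgeR) and -1.47 in treated fish (adjusted p = 3.90e-07, edgeR). Deviations from the group means correlated above 0.1 in 4 of the 5 same-numbered pairs of OT and HT and in 2 of 5 of OC and HC, and 5 of 5 OT and 3 of 5 OC ovaries correlated best with their own number. Same-numbered libraries of treated and control fish, which cannot be 1 fish, reached 0.25 (OT and OC, number 5) and 0.30 (HT and HC, number 6), where no OT and HT pair passed 0.15. Of these, 2 of 4 OT and OC pairs and 0 of 6 HT and HC pairs correlated best with their own number. Not every pair passed 0.1, so the fit without the block was kept as first chosen, and it takes the 22 libraries as independent. The correlations do not settle whether numbers mark fish. Of all genes, DESeq2 called 29 in ovary and 4 in hypothalamus where edgeR called 2 and 0, and 0 were called in ovary with at least 10 counts in every library. DESeq2 called 2 muscle genes in ovary where edgeR called 0, and no other list count moved by more than 1.5 times.

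The short copy had 0 to 5 counts in every control library but HC4, which had 70. Only OC3, OC6 and HC2 had 0, where a level below 3 counts cannot be told apart from absence.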
